A study of Mus musculus with 12 samples.

Results

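Galectins are lectins that bind β-galactoside sugars on glycoproteins and glycolipids. They are made without a signal peptide, work in the cytosol and nucleus, and leave the cell by a route other than the classical secretory pathway to cross-link receptors and matrix proteins at the cell surface. Prototype galectins such as galectin-1 have one carbohydrate recognition domain and pair up, galectin-3 is a chimera that joins such a domain to a long flexible tail, and the tandem-repeat galectins 4, 8, 9 and 12 carry a pair of domains on one chain. Galectin-3, also known as Mac-2, is an abundant macrophage protein, and galectin-12 is found mainly in fat cells, where it sits on lipid droplets. The 6 galectin genes Lgals1, Lgals3, Lgals4, Lgals8, Lgals9 and Lgals12 are a chosen set, found by symbol among the 19505 gene symbols of the array, and all 6 were measured, each by a single probe set. Other measured galectin genes, such as Lgals2 and Lgals7, are described after them.

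The arrays addressed what blocking the ribosomal protein S6 kinase 1 (S6K1) does to the transcriptome of fat and liver in diet-induced obesity. Male C57BL/6N mice, 8 weeks old at the start, received by oral gavage every 12 hours either vehicle (HFD) or 25 mg/kg of the S6K1 inhibitor LY2584702 tosylate (LY; HFD + LY) for 12 weeks, and all of them ate a high-fat diet with 60% of its calories from fat for the last 10 weeks. Inguinal s.c. adipose tissue (SAT) and liver (LIV) of the same animals were hybridised to 1 whole-transcript Affymetrix array each, giving 12 arrays. Animals 8, 11 and 14 were the 3 HFD mice, and animals 16, 18 and 20 were the 3 given LY as well. Chow-fed mice were not analysed here, so each comparison is between mice on the same high-fat diet.

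Values are log2 signals after robust multiarray averaging (RMA), which corrects background, normalizes the arrays and summarizes each probe set. The array medians lay between 8.16 and 8.28. The labelled tissues matched their markers, since all 11 measured adipocyte genes were higher in SAT than in LIV (median log2 difference 4.31) and all 10 hepatocyte genes were lower (median -5.27). In SAT, animals 11 and 20 stood apart through genes of skeletal muscle. The mean log2 signal of 15 muscle genes was 12.64 in animal 11 and 12.54 in animal 20, against 7.83 and 9.24 in HFD animals 8 and 14 and 7.68 and 7.78 in HFD + LY animals 16 and 18. The SAT calls are therefore also given without those 2 animals, which leaves 4 arrays. That fit is not free of muscle signal, since it keeps animal 14, where the muscle gene Atp2a1 was at 11.37. In it 3 of the 15 muscle genes were lower at an unadjusted limma p under 0.05 (list median -0.73), where 18.2% of all probe sets passed. The part of the muscle signal in the galectin values was not tested.

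The tissue was the main divide among the galectins. At an adjusted p under 0.05 from limma, where p was adjusted by Benjamini-Hochberg across the 22206 probe sets tested, 3 of the 6 genes were higher in SAT than in LIV (Lgals1, Lgals3 and Lgals12) and 3 were lower (Lgals4, Lgals8 and Lgals9). Of all probe sets 59.9% passed the same test, so the count of 6 is not particular to the family. Bulk tissue was measured, so that fewer cells of a type and less RNA per cell cannot be told apart.

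Galectin-12 was near background in liver. The Lgals12 signal in SAT was 12.35, 12.24 and 12.42 in HFD animals 8, 11 and 14 and 12.79, 12.88 and 11.98 in HFD + LY animals 16, 18 and 20. In LIV it was 5.96, 6.06 and 6.37 in the HFD animals and 6.04, 5.70 and 5.95 in the HFD + LY animals. All 6 liver values lay below the median of the 5222 negative control probe sets of their array, which ran from 6.89 to 7.09 in LIV, while all 6 SAT values lay above the 95th percentile of those controls. The difference between SAT and LIV was 6.43 on the log2 scale (standard error 0.14, limma adjusted p = 4.02e-13), against a liver signal at background.

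Lgals1, which encodes a galectin of fibroblasts, vessels and smooth muscle, was also higher in fat. Its signal was 14.005, 13.82 and 14.01 in SAT of HFD animals 8, 11 and 14 and 13.58, 13.75 and 13.97 in SAT of HFD + LY animals 16, 18 and 20. In LIV it was 10.88, 10.43 and 10.89 in the HFD animals and 9.27, 9.48 and 9.91 in the HFD + LY animals. The lowest SAT array stood above the highest LIV array, and the difference was 3.71 (standard error 0.12, limma adjusted p = 2.17e-11). The gap was 3.21 in HFD mice and 4.21 in HFD + LY mice.

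Lgals3 was likewise higher in fat. Its SAT signal was 12.25, 11.14 and 12.34 in HFD animals 8, 11 and 14 and 10.98, 11.39 and 11.64 in HFD + LY animals 16, 18 and 20. In LIV all 6 values lay in the narrow range of 8.80 to 9.21, above the median of the negative controls but below their 95th percentile. The SAT minus LIV difference of 2.69 (standard error 0.19) had a limma adjusted p of 5.29e-08.

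Galectin-8, which recognises sugars exposed on damaged lysosomes and endosomes, and galectin-9, a ligand of the T cell receptor Tim-3, were higher in liver. Lgals8 ranged from 12.08 to 12.35 in LIV and from 10.96 to 11.15 in SAT (difference -1.17, standard error 0.064, limma adjusted p = 5.02e-09). Lgals9 ranged from 11.93 to 12.24 in LIV and from 10.18 to 10.47 in SAT (difference -1.80, standard error 0.072, limma adjusted p = 1.79e-10). For both genes the arrays of the tissues did not overlap, as for Lgals1, Lgals3 and Lgals12, and as for 38.4% of all probe sets.

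Lgals4 encodes a galectin best known from the epithelium of the gut, where it clusters glycolipids and guides cargo to the apical surface. Its tissue difference was -0.35 (standard error 0.10, limma adjusted p = 0.00965), and the estimates of the groups differed. In HFD mice SAT lay 0.73 below LIV (limma adjusted p = 0.00106). In HFD + LY mice the difference was 0.03 with a 95% confidence interval that includes 0 (limma adjusted p = 0.886). The direct test of group against group gave 0.75 and did not pass after adjustment (limma unadjusted p = 0.00269, adjusted p = 0.568). Without animal 14 the difference over both groups was -0.29 and did not pass (limma adjusted p = 0.0598).

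**Figure D1:**
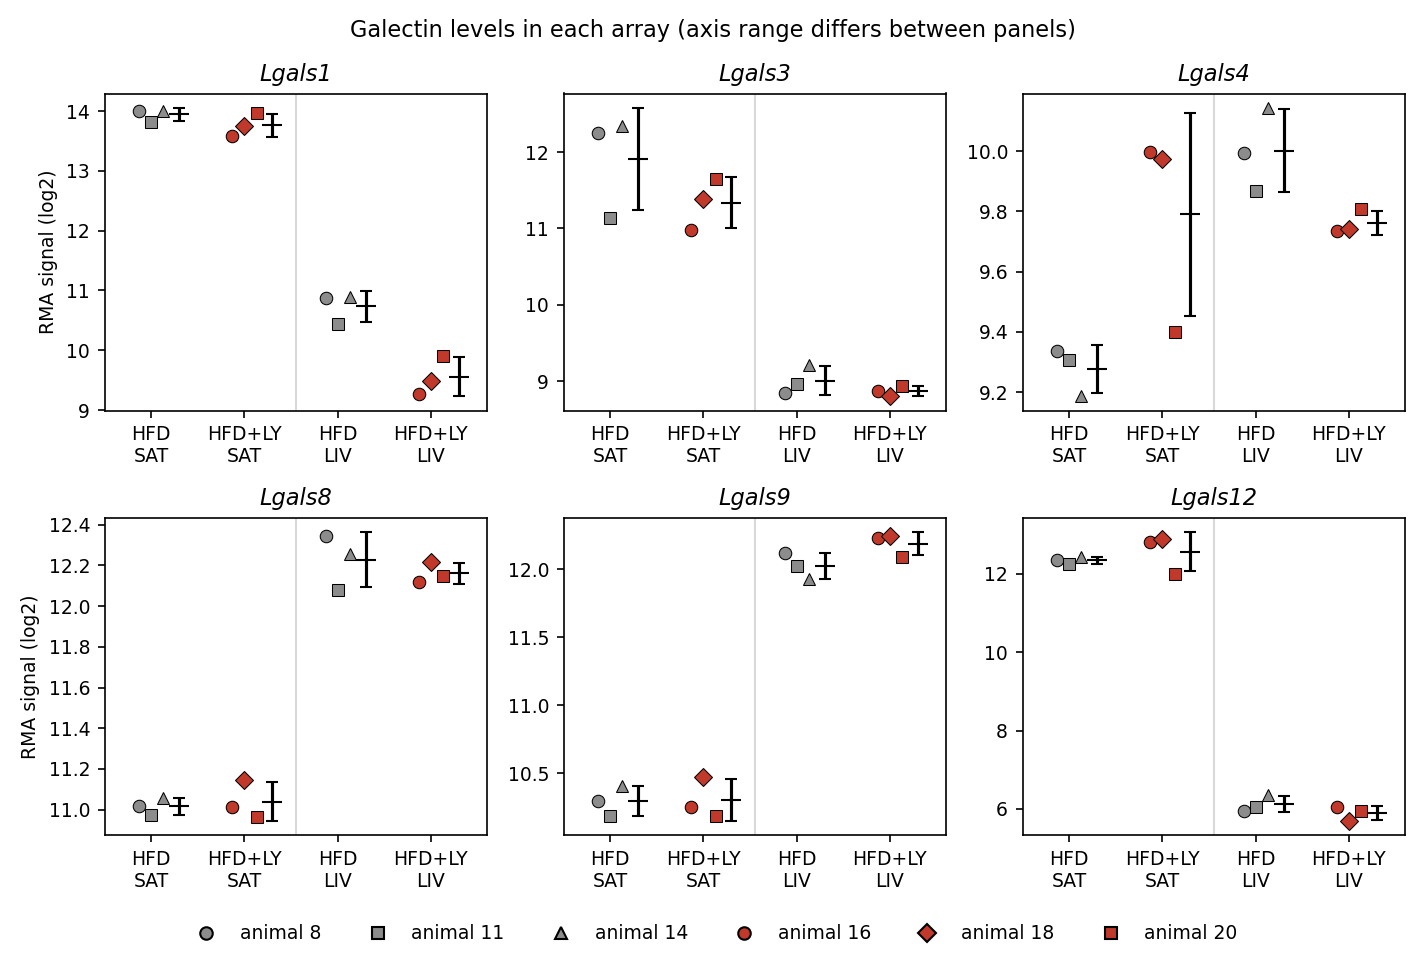
Log2 RMA signal (y axis) of the 6 galectin genes in every array, by treatment group and tissue (x axis), with 1 symbol per animal and the group mean ± SD (n = 3) beside the symbols. Lgals1, Lgals3 and Lgals12 stand higher in SAT, Lgals8 and Lgals9 in LIV, and in the Lgals4 panel the SAT arrays of HFD + LY animals 16 and 18 reach 9.997 and 9.97 against 9.19 to 9.34 in HFD mice.

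In the liver, Lgals1 stood out among the galectins in the comparison of HFD + LY with HFD mice. Each of the 3 HFD + LY livers (9.27 to 9.91) was below each of the 3 HFD livers (10.43 to 10.89). The group mean was 10.73 ± 0.26 (SD, n = 3) for HFD against 9.56 ± 0.32 (SD, n = 3) for HFD + LY livers. The difference of -1.18 (standard error 0.18, 95% confidence interval -1.60 to -0.76) corresponds to a 2.26-fold lower signal. The unadjusted limma p was 0.000152, but the adjusted p over all probe sets was 0.338, so Lgals1 did not pass. Leaving out single animals moved the difference between -1.35 and -1.04, and the unadjusted limma p then ran from 5.04e-05 to 0.0011. In HFD livers all 3 arrays exceeded the 95th percentile of the negative controls (9.84 to 9.95 over the LIV arrays), and in HFD + LY livers 1 of 3 did.

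Lgals4 was the other galectin at an unadjusted p under 0.05 in liver. The signal was 9.99, 9.87 and 10.14 in HFD animals 8, 11 and 14 and 9.74, 9.74 and 9.81 in HFD + LY animals 16, 18 and 20. The groups did not overlap, but these values lie around the 95th percentile of the negative controls. The difference was -0.24 (standard error 0.10, 95% confidence interval -0.47 to -0.01, limma unadjusted p = 0.0397, adjusted p = 0.719). Of the 12 epithelial genes 2 were lower in LIV at an unadjusted limma p under 0.05 and 0 were higher, where 3.94% of all probe sets were lower. These were Krt19, a keratin of bile ducts, at -0.56 and Krt14 at -0.27, and 0 passed after adjustment. The Krt19 groups overlapped, at 6.81 to 7.67 in HFD and 6.34 to 6.82 in HFD + LY livers. These values lie around the negative control medians, which ran from 6.89 to 7.09 in LIV. The mean log2 signal of that list was 8.61 to 8.94 in HFD and 8.56 to 8.59 in HFD + LY livers, and its part in the Lgals4 difference was not tested. The Lgals4 difference missed an unadjusted p of 0.05 when animal 8, 14, 16, 18 or 20 was left out, with -0.17 without animal 14 and -0.26 without animal 20.

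Together 2 of 6 members were lower in LIV at an unadjusted limma p under 0.05 and 0 were higher, against 3.94% of all probe sets lower and 2.96% higher. The median difference of the 6 was -0.18, that of all probe sets -0.01. At the adjusted threshold 0 members passed, as against 0.00450% of all probe sets. The groups did not overlap for 2 of 6, against 12.5%. The other 4 had 95% confidence intervals that include 0. They ran from -0.40 to 0.12 for Lgals3, from -0.29 to 0.16 for Lgals8, from -0.06 to 0.38 for Lgals9 and from -0.54 to 0.08 for Lgals12, and the groups of these 4 genes overlapped. For Lgals12 the liver comparison lies below the negative control median throughout.

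Some genes of the cell type marker lists were lower in LIV of HFD + LY mice at an unadjusted limma p under 0.05, where 3.94% of all probe sets were lower, and none of them passed the adjusted threshold. Of 15 macrophage genes 4 were lower and 0 higher, with Mpeg1, a pore-forming protein of macrophages, at -0.63. The mean log2 signal of that list was 8.24 to 8.30 in HFD and 7.96 to 8.14 in HFD + LY livers. Among the 7 Kupffer cell genes 1 was lower (Cd5l, -0.44), among 8 endothelial genes 1 was lower (Cldn5, -0.60), and among 11 adipocyte genes 3 were lower (Cidec, -0.50). None of the 10 fibroblast and progenitor genes and none of the 7 stellate cell genes passed in either direction. The list mean was 8.91 to 9.43 in HFD and 8.84 to 9.02 in HFD + LY livers for Kupffer cell genes, 8.40 to 8.54 and 8.06 to 8.49 for endothelial genes, and 8.78 to 8.88 and 8.63 to 8.72 for adipocyte genes. That of the fibroblast list was 8.74 to 8.79 in HFD and 8.72 to 8.74 in HFD + LY livers. The part of these cells in the Lgals1 difference was not tested.

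In SAT the galectin with the lowest p was Lgals4. The signal was 9.34, 9.31 and 9.19 in HFD animals 8, 11 and 14 and 9.997, 9.97 and 9.40 in HFD + LY animals 16, 18 and 20. All 3 HFD + LY arrays were above all 3 HFD arrays, though animal 20 only narrowly. The difference was 0.51, a 1.43-fold higher signal (standard error 0.17, 95% confidence interval 0.13 to 0.90), with a limma unadjusted p of 0.0148 and an adjusted p of 0.949. Without animal 16 it was 0.41 and without animal 18 it was 0.42, and both missed an unadjusted p of 0.05. With the methods' t-test, run here on each probe set with equal variance, Lgals4 also missed it.

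Leaving out animals 11 and 20 gave 0.72 for Lgals4 in SAT, with a limma adjusted p of 0.0196. In HFD SAT 0 of 3 arrays exceeded the 95th percentile of the negative controls (9.62 to 9.85 over the SAT arrays) and in HFD + LY SAT 2 of 3 did. The probe set of Lgals4 is annotated with 2 transcripts, of which 1 is listed under Lgals4 in the RefSeq table. Lgals6, a near-identical copy of Lgals4 known from some mouse strains, had no probe set of its own here, so that signal of Lgals6 within the Lgals4 value cannot be told apart. Of the 12 epithelial genes 0 passed in SAT, and their mean log2 signal was 7.30 to 7.79 in HFD and 7.26 to 7.68 in HFD + LY mice.

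Lgals3 differed in SAT by -0.57 (standard error 0.32, 95% confidence interval -1.31 to 0.16, limma unadjusted p = 0.111, adjusted p = 0.994). The groups overlapped because HFD animal 11, at 11.14, lay below 2 of the 3 HFD + LY arrays, whereas HFD animals 8 and 14 lay above all of them. Without animal 14 the difference was -0.35 (limma unadjusted p = 0.322). Without animal 11 it was -0.96 (limma unadjusted p = 0.00136, adjusted p = 0.187), and without animals 11 and 20 it was -1.11 (standard error 0.14, limma adjusted p = 0.0149).

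Some macrophage genes were also lower in SAT. Of 15 measured, 3 were lower at an unadjusted limma p under 0.05 in HFD + LY mice and 0 higher, with Itgad, an integrin of macrophages in obese fat, at -2.31, Lyz2, a lysozyme, at -0.41 and Mpeg1 at -0.60, and the list median was -0.20. The share of all probe sets lower was 3.19%, and 0 of the list passed after adjustment. Without animals 11 and 20, 8 were lower and 0 higher, in a fit where 18.2% of all probe sets passed in either direction. The list mean was 9.21 to 9.82 in HFD and 9.22 to 9.35 in HFD + LY SAT, and its part in the Lgals3 values was not tested.

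Lgals12 in SAT was split within the HFD + LY group. Animals 16 and 18, at 12.79 and 12.88, were above all 3 HFD arrays, and animal 20, at 11.98, was below all of them. The difference over all 6 arrays was 0.21 (standard error 0.22, 95% confidence interval -0.30 to 0.73, limma unadjusted p = 0.366). Without animal 16 it was 0.094 and without animal 18 it was 0.049. Without animal 20 it was 0.50 (limma unadjusted p = 0.00184, adjusted p = 0.195), and without animals 11 and 20 it was 0.45 (limma adjusted p = 0.0672). Among the 11 adipocyte genes, 3 were lower and 0 higher in the SAT of LY-treated mice (unadjusted limma p under 0.05), 0 after adjustment. Of all probe sets 3.19% were lower and 1.86% higher there. The adipocyte list median was -0.12, with list means of 12.90 to 13.06 in HFD and 12.80 to 12.89 in HFD + LY mice. Without animals 11 and 20, 6 of the 11 were lower and 0 higher unadjusted, and 1 passed after adjustment (list median -0.235). That fit called 18.2% of all probe sets unadjusted and 2.58% adjusted.

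For Lgals1 in SAT the groups overlapped through HFD + LY animal 20, at 13.97, which exceeded HFD animal 11. The 95% confidence interval of the difference ran from -0.47 to 0.11, and without animals 11 and 20 the difference was -0.34 (limma adjusted p = 0.147). Of the 10 fibroblast and progenitor genes, 2 were lower in SAT and 0 higher at an unadjusted limma p under 0.05, namely Col3a1, a fibrillar collagen, at -0.57, and Lum, a matrix proteoglycan, at -0.65, and 0 passed after adjustment. Of all probe sets 3.19% were lower and 1.86% higher in SAT. Without animals 11 and 20, 4 of the 10 genes were lower, 2 of the 10 after adjustment. That fit called 18.2% of all probe sets unadjusted and 2.58% adjusted. The list mean was 10.49 to 10.84 in HFD and 10.48 to 10.60 in HFD + LY SAT, and its part in the Lgals1 values was not tested.

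Lgals8 (95% confidence interval -0.19 to 0.24) and Lgals9 (-0.26 to 0.27) showed the narrowest intervals around 0 among the members in SAT, and the sign of both depended on single animals.

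Over the family, 1 of 6 members was higher in SAT at an unadjusted limma p under 0.05 and 0 were lower, against 1.86% and 3.19% of all probe sets. The median was 0.02, and -0.005 for all probe sets. Without animals 11 and 20 the count was 4 of 6, with Lgals4 and Lgals12 higher and Lgals1 and Lgals3 lower, while 18.2% of all probe sets passed. At the adjusted threshold that fit called 2 of 6 (Lgals3 and Lgals4) and 2.58% of all probe sets, and with all 6 arrays it was 0 of 6 and 0.00%. With array weights, which lean most on animal 16, 4 of 6 passed unadjusted, against 21.4%, and 1 of 6 (Lgals4) adjusted, against 1.60%. The arrays of the groups did not overlap in SAT for 1 of 6 members, against 9.49% of all probe sets.

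**Figure D2:**
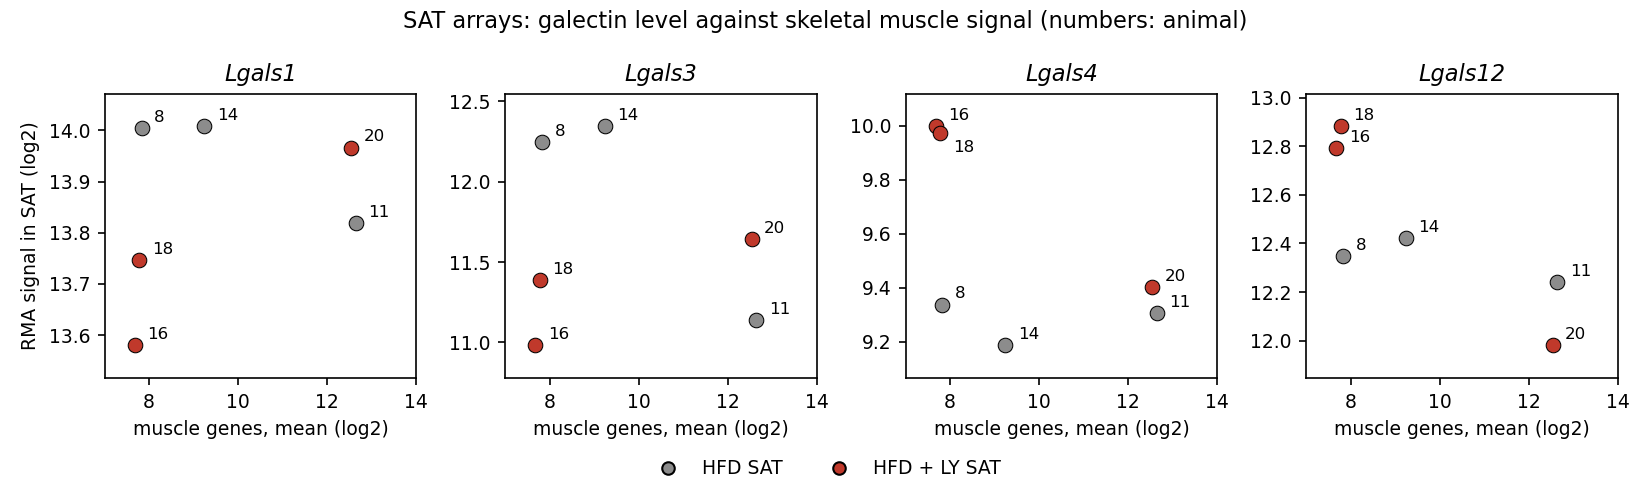
Log2 signal of Lgals1, Lgals3, Lgals4 and Lgals12 in the 6 SAT arrays (y axis) against the mean log2 signal of 15 skeletal muscle genes in the same array (x axis), with the animal number beside each point. Animals 11 and 20 lie at the right with a muscle mean of 12.64 and 12.54, and animal 20 lies apart from animals 16 and 18 in the Lgals4 and Lgals12 panels.

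Both tissues came from the same animals, and limma tested whether the response differed between the tissues. The values here come from fits without a term for the animal, and the fit with animal as a block is given in the closing section. For Lgals1 the response in SAT minus that in LIV was 1.00 on the log2 scale (standard error 0.24, limma unadjusted p = 0.00133, adjusted p = 0.446). Both estimates were below 0, at -0.18 in SAT and -1.18 in LIV. For Lgals4 the response in SAT minus that in LIV was 0.75 (standard error 0.20, limma unadjusted p = 0.00269, adjusted p = 0.568), with opposite signs in the tissues. At an unadjusted limma p under 0.05, 2 of 6 members passed this test, against 6.21% of all probe sets, and at the adjusted threshold 0 of 6, against 0.0405%. Lgals4 was higher without overlap in SAT and lower without overlap in LIV, a pattern held by 58 of 22206 probe sets (0.261%). Without animals 11 and 20 the tissue difference in response was 1.16 for Lgals1 (limma adjusted p = 0.0446) and 1.05 for Lgals4 (adjusted p = 0.046). There 0.167% of all probe sets passed, and 4 of 6 members against 10.9% did so unadjusted. That fit also drops the livers of both animals, where the mean of the muscle genes was only 7.50 and 7.60. Among the livers, animal 11 had the lowest HFD value (Lgals1 10.43, Lgals4 9.87). Animal 20 had the highest HFD + LY value (Lgals1 9.91, Lgals4 9.81). A fit that drops only the SAT arrays of these animals was not run. With array weights 4 of 6 passed unadjusted, against 14.5%, and 1 of 6 (Lgals4) adjusted, against 0.261%. For the other 4 members the interval of the difference in response included 0, and the widest was that of Lgals3, from -1.25 to 0.38.

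**Figure D3:**
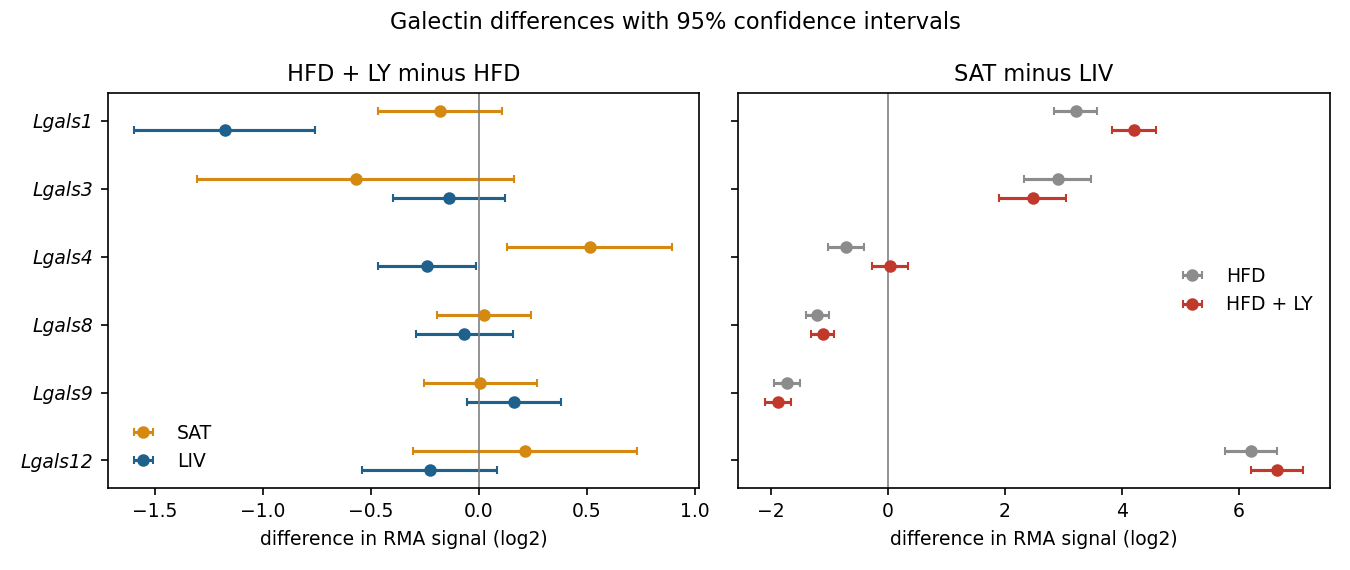
Differences in log2 RMA signal (x axis) with 95% confidence intervals from limma for the 6 galectins, as HFD + LY minus HFD in SAT and LIV (left) and as SAT minus LIV in either treatment group (right). On the left the LIV interval of Lgals1 lies between -1.60 and -0.76 and the SAT interval of Lgals4 between 0.13 and 0.90, and on the right Lgals12 lies above 6 in both groups.

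The rest of the family lay above the median of the negative controls in all 12 arrays, but mostly below their 95th percentile. Lgals2, Lgals7 and Grifin, the galectin-related protein of the lens, stayed below the 95th percentile of the negative controls in all 12 arrays, and Lgalsl, a galectin-like gene whose protein lacks lactose binding, exceeded it in 6 of 12. In both tissues 0 of these 4 passed an unadjusted limma p of 0.05 for HFD + LY against HFD mice. The values in SAT were -0.07 for Lgals2, -0.02 for Lgals7, 0.06 for Grifin and -0.16 for Lgalsl, and those in LIV were -0.11, -0.15, -0.17 and -0.13 in the same order.

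Lgals3bp encodes a secreted, heavily glycosylated protein that galectin-3 binds. In SAT it was 11.23, 10.75 and 11.004 in HFD animals 8, 11 and 14 and 10.64, 10.68 and 10.61 in HFD + LY animals 16, 18 and 20. The groups did not overlap, and the difference was -0.35 (standard error 0.13, limma unadjusted p = 0.0279, adjusted p = 0.951). In LIV it was -0.12 with overlapping groups.

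Among 22 measured galectin binding partners, 3 were lower and 0 higher in SAT at an unadjusted limma p under 0.05, and 2 were lower and 0 higher in LIV. Of all probe sets 3.19% were lower in SAT and 3.94% in LIV. In SAT the 3 were Lgals3bp, Itgam, the integrin CD11b of myeloid cells, at -0.56 (standard error 0.15), and Lamp1, a lysosomal membrane glycoprotein, at -0.28 (standard error 0.10). In LIV they were Itga5, the fibronectin receptor subunit, at -0.32 (standard error 0.10), and Mertk, a receptor for the uptake of dead cells, at -0.26 (standard error 0.10). For each of these genes, which were picked by that p, the groups did not overlap, and none passed the adjusted threshold. Of all probe sets 9.49% did not overlap in SAT and 12.5% in LIV. For Mertk the gap was narrow, with the lowest HFD liver at 9.395 and the highest HFD + LY liver at 9.390. The median over the list was 0.01 in SAT and -0.08 in LIV. Without animals 11 and 20 the SAT count was 5 lower and 1 higher, where 18.2% of all probe sets passed.

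The glycosyltransferase genes that build or cap galectin ligands showed 1 call per tissue at an unadjusted limma p under 0.05 among 19 measured, near the share of all probe sets, which was 1.86% higher and 3.19% lower in SAT and 2.96% higher and 3.94% lower in LIV. In LIV, St6gal1, which adds sialic acid caps that galectin-1 does not bind, was 9.89, 10.37 and 10.18 in HFD animals 8, 11 and 14 and 9.70, 9.77 and 9.32 in HFD + LY animals 16, 18 and 20, a difference of -0.55 without overlap (standard error 0.16, limma unadjusted p = 0.0076, adjusted p = 0.687). In SAT, B3gnt2, which extends the poly-N-acetyllactosamine chains that galectins bind, differed by 0.31 (standard error 0.12, limma unadjusted p = 0.0369, adjusted p = 0.963). Mgat5, the branching enzyme of N-glycans, gave -0.32 in SAT and 0.01 in LIV and did not pass. Without animals 11 and 20 the SAT count was 4 higher and 3 lower, where 18.2% of all probe sets passed, and the LIV count was 0. Of 10 measured genes for the galectin response to damaged lysosomes, such as the autophagy receptor Sqstm1, 0 passed in either tissue.

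**Figure D4:**
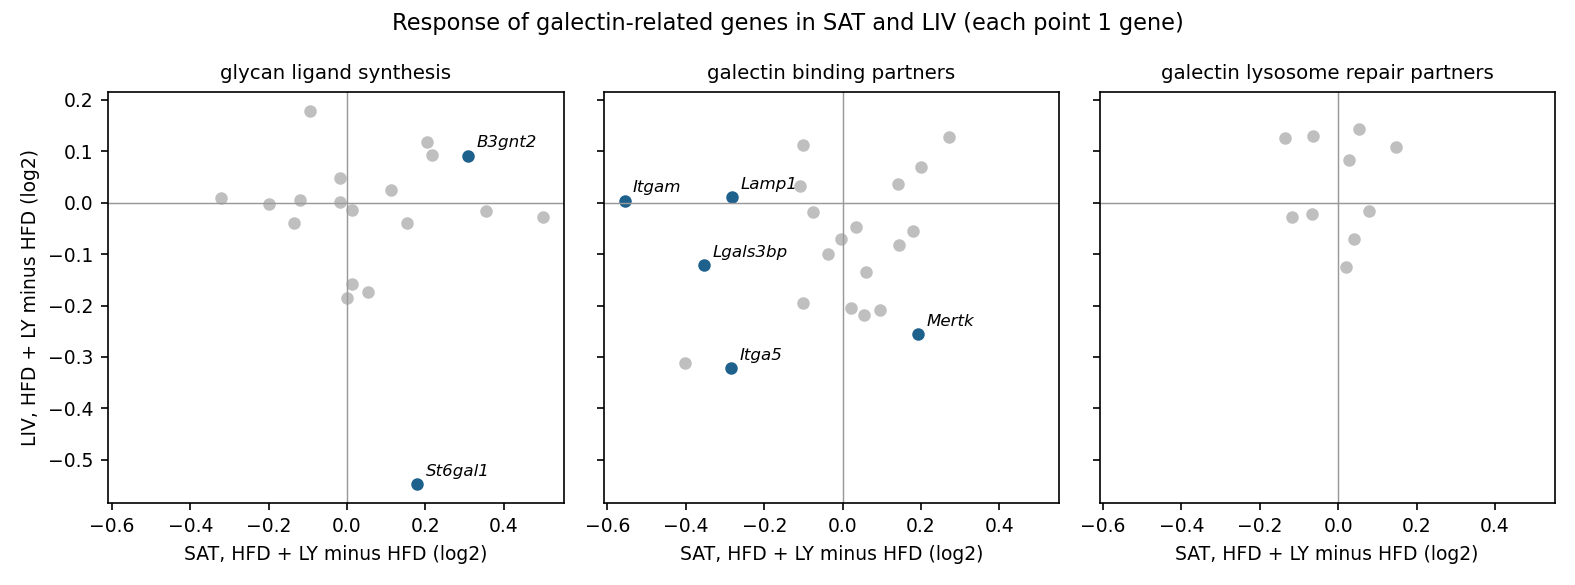
HFD + LY minus HFD difference in log2 signal in SAT (x axis) and LIV (y axis) for the measured genes of 3 galectin-related lists, 1 point per gene. Named blue points had an unadjusted limma p under 0.05 in either tissue, such as Itgam at -0.56 in SAT and St6gal1 at -0.55 in LIV, and grey points did not.

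As a description of which genes followed each galectin from array to array, the tissue means were subtracted and Pearson's r was taken over the 12 arrays, which share animals, groups and the SAT muscle signal. Lgals3 was closest to Ctsz (0.977), a lysosomal protease, Grn (0.963), the progranulin gene, and Trem2 (0.955), a lipid receptor of macrophages. Lgals4 was closest to Vnn1 (0.967), the pantetheinase vanin-1, with Clp1 (0.938) and Ivns1abp (0.934) next. Lgals1 was closest to Ctse (0.941), an aspartic protease, Chrnb2 (0.932) and Acot3 (0.927), an acyl-CoA thioesterase of peroxisomes.

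The nearest genes to the other members had r of 0.919 for Lgals8 (Slc51b), 0.927 for Lgals9 (Gsr, glutathione reductase) and 0.927 for Lgals12 (Fam216a). Next came Clpb (0.917) and Olfr1014 (0.912) for Lgals8, Cpd (0.926) and Mrpl19 (0.925) for Lgals9, and Smyd4 (0.917) and Chst1 (0.906) for Lgals12. Between members, the highest value was that of Lgals4 with Lgals12 (0.785), which share the low SAT array of animal 20 within the HFD + LY group, and the lowest was that of Lgals1 with Lgals9 (-0.558).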

How the data were processed

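The authors deposited log2 signals, 1 column per array, made from whole-transcript Affymetrix arrays by RMA (background correction, normalization and summary per probe set). The submitters' processing notes name RMA and limma without versions, and the genome build is not given in the sources used here. The table holds 28846 probe sets, and 22206 remained for testing once 6640 control probe sets had been removed. Among them 19572 had 1 gene symbol in the platform annotation, 0 had several and 2634 had none. The number of arrays limits the precision.

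HFD + LY and HFD were compared within each tissue, and SAT with LIV and the interaction over all 12 arrays, with limma 3.58.1 in R 4.3.3 (lmFit, eBayes) and Benjamini-Hochberg adjustment over all probe sets. The fit was run on simulated data with independent normal noise for each probe set and array. That simulation held no shared muscle signal and no animal effect, so it does not test the fit under them. An exact permutation test of 3 against 3 cannot go below p = 0.1. The same animals gave both tissues, so animal numbers pair the arrays, and same-numbered arrays deviated together with r from -0.0669 to 0.214. Alternatives were all 12 arrays in 1 fit, an intensity trend, quantile or median normalization, and omission of the dimmest 25% of probe sets. Further ones were array weights, an equal-variance t-test, omission of each animal and of animals 11 and 20, and animal as a block.

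The members, the gene lists and these alternatives were chosen with earlier results of these data known. Named were every member and other galectin, Lgals3bp, up to 4 genes per list with the smallest limma p, and the 3 genes most like each member.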

Additional observations from a re-analysis of the deposited data

Results flagged for a closer look

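The response in SAT minus that in LIV passed an unadjusted limma p of 0.05 for 6 of 61 galectins and related genes looked at, and for 0 of them after adjustment, against 6.21% of all probe sets unadjusted. Lgals1 differed by 1.00 (adjusted p = 0.446), being lower in HFD + LY livers. Lgals4 differed by 0.75 (adjusted p = 0.568), with opposite signs in the tissues. St6gal1 differed by 0.73 (adjusted p = 0.78) and Mertk by 0.45 (adjusted p = 0.77), both lower in LIV. Itgam differed by -0.56 (adjusted p = 0.77) and Lamp1 by -0.29 (adjusted p = 0.797), both lower in SAT.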

How the results depend on the processing

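The 3 HFD against 3 HFD + LY arrays per tissue limit every treatment result, and the cause of each change was not tested. The SAT results are further limited by muscle signal, strong in 2 arrays and raised in HFD animal 14. The fit without animals 11 and 20 keeps animal 14. For LIV and for the difference in response it also drops the livers of animals 11 and 20. Of 6 galectins, the number at an unadjusted p under 0.05 in SAT was 1. It was 4 with array weights, 0 with the equal-variance t-test, 4 without animals 11 and 20, and 0 to 3 without single animals. After adjustment it was 0, and 1 with array weights (Lgals4, 0.69, adjusted p = 0.0333) and 2 without animals 11 and 20. Array weights lean most on animal 16 (4.46). In LIV the unadjusted count of 2 was 1 with all 12 arrays in 1 fit, 1 after median normalization and 1 to 2 with single animals left out, and the adjusted count of 0 was 1 with an intensity trend (Lgals1, adjusted p = 0.0497). For the difference in response between tissues the unadjusted count of 2 was 4 with array weights and 4 without animals 11 and 20, and the adjusted count of 0 was 1 with array weights (Lgals4, 0.93, adjusted p = 0.0379) and 2 without animals 11 and 20.

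The sign turned for Lgals8 in SAT without animal 18 (-0.028; with single animals left out -0.028 to 0.063), for Lgals9 in SAT with array weights (-0.043), without animal 11 (-0.048) and without animal 18 (-0.079), its range being -0.079 to 0.067, and for the SAT minus LIV difference of Lgals4 in HFD + LY mice after quantile (-0.063) or median (-0.051) normalization, without animal 16 (-0.088) and without animal 18 (-0.072), its range with single animals left out being -0.088 to 0.25. With animal as a replicate block, the difference in response was 1.00 for Lgals1 (adjusted p = 0.158) and 0.75 for Lgals4 (adjusted p = 0.658), and the SAT minus LIV difference of Lgals4 was -0.35 (adjusted p = 0.019), and the block changed no call. Lgals12 in LIV could not be tested without the dimmest 25% of probe sets.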
